A study of Mus musculus with 6 samples.

Results

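The genes described here act in mitosis: they build the kinetochore and the spindle, pack and part the chromosomes, and divide the cell. They were chosen by name, as the symbols of the array's annotation that belong to the kinesin, centromere protein, Bub, Aurora, Polo, Nek, SMC, condensin, tubulin and stathmin families, together with a list of single mitotic genes such as Top2a, Birc5 and Cdc20. The rule found 56 of the 6370 genes with a symbol, each with 1 array feature, and 55 of them had a value on every array. Kif5c had no value. Because the families were taken whole, 22 of the 56 are tubulins, stathmins or kinesins grouped apart from the mitotic motors, and the other 34 were grouped by roles in dividing cells. The grouping is not strict, since Kif2a, among the other kinesins, also acts at mitotic spindle poles.

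Differentiated cultures had spent 72 hours without FGF in F10C medium that held insulin (given as 1 mM) and 10% horse serum. Proliferating cultures were harvested as dividing myoblasts in growth medium with bFGF at 6.6 ng/ml. Both came from satellite cells, which are muscle stem cells, pooled from the hind limb muscles of each of 3 adult male Swiss Webster mice, so that every mouse gave 1 culture of each kind and there were 3 arrays per group. The sample titles give a replicate number and no mouse, and cultures with equal numbers were taken to come from the same mouse. The cells are a mix of purified myoblast clones after preplating against fibroblasts, and no age, genotype or allele is given beyond strain, sex and adulthood.

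In a dividing cell the kinetochore assembles on centromeric chromatin and binds spindle microtubules, the spindle checkpoint holds the cell until every chromosome is attached, and the anaphase-promoting complex then releases the sister chromatids. Most of these proteins are made anew in each G2 phase, and their promoters often carry a cell cycle homology region (CHR) and CCAAT boxes. Myoblasts leave the cell cycle for good when they differentiate, and the resulting myotubes keep microtubules for shape and transport.

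The letters of 3 promoter elements were searched in the genes described here. The 6 promoters printed for genes that fell each hold a CHR and a CCAAT, and of them only that of Top2a holds the variant TTCGAA. Beside them stands that of Nek7, which did not fall and holds none. These are examples and no fair sample, since Birc5 and Nuf2 fell and held none, and Bub3 and Kif4 held both without being called. Each stretch runs 5′ to 3′ on the gene's strand from 150 bases before the transcription start to 30 bases after it, from RefSeq on GRCm38.p6. Capitals mark the CHR (TTTGAA), its variant (TTCGAA) and CCAAT, searched on both strands, so that TTCAAA and ATTGG are matches on the other strand. Cdc20 lies at chr4:118437314-118437493 on the minus strand, Cenpa at chr5:30666736-30666915 on the plus strand and Hmmr at chr11:40733408-40733587 on the minus strand. Kif23 lies at chr9:61946770-61946949 on the minus strand, Ttk at chr9:83834539-83834718 on the plus strand, Top2a at chr11:99024160-99024339 on the minus strand and Nek7 at chr1:138619728-138619907 on the minus strand.
Cdc20: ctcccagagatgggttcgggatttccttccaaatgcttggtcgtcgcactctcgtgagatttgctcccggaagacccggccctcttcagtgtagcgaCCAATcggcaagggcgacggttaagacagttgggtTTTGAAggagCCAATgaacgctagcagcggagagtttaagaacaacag
Cenpa: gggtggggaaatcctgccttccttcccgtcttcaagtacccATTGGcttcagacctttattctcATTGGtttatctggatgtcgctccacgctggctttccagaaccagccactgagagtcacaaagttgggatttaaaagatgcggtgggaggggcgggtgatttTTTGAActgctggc
Hmmr: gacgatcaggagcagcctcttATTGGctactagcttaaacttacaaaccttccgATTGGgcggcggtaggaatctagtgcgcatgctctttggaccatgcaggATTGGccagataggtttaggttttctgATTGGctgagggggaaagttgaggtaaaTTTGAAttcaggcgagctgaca
Kif23: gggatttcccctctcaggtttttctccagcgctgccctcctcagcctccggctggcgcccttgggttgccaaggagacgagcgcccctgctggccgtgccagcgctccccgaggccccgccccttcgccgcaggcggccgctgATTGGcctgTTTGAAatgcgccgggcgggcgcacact
Ttk: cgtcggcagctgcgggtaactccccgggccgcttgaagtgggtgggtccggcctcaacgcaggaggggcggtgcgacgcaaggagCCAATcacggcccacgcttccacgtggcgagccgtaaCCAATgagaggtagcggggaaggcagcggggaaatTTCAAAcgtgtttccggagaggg
Top2a: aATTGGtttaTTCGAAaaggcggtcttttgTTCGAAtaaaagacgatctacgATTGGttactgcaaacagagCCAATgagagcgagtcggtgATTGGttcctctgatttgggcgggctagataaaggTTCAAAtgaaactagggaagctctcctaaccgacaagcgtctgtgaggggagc
Nek7: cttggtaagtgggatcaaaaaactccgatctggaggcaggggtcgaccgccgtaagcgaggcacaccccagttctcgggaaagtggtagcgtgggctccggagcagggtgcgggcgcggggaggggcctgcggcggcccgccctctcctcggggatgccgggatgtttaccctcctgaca

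Before the results, the arrays and the cells were checked. Median intensities lay between 0.883 and 0.939 on the 6 arrays, and no array was left out. Of 11 markers of muscle cells 8 were named on the array, and the factor Myod1 had intensities of 86.4, 88.1 and 84 in differentiated and 154, 146 and 134 in proliferating cultures, so that all 6 cultures showed a defining marker of myoblasts. Myog, which drives differentiation, had 210, 83.7 and 112 in differentiated and 142, 18.3 and 44.8 in proliferating cultures of mice 1, 2 and 3, so that proliferating replicate 1 lay within the differentiated range. The log2 differences were 3.72 for Ckm (muscle creatine kinase), 2.29 for Tnnt3, 0.39 for Itga7, 0.38 for Chrna1, -0.05 for Cdh15 and -0.26 for Myf5. In differentiated cultures Ckm had 51.4, 1.00 and 47.9 and Myf5 had 74, 13 and 3.15. Of the 8 markers 0 passed without a mouse term. With mouse as a random block 1 was higher and 0 lower, against 5.07% and 5.28% of all features. With mouse as a fixed block 0 passed. Summed intensities of 5 of 6 endothelial markers were 0.422 to 0.947 in differentiated and 0.412 to 0.825 in proliferating cultures, and those of 3 of 7 macrophage markers 0.204 to 0.886 and 0.361 to 1.3. For 6 of 8 fibroblast markers the sums were 49.8 to 189 in differentiated and 38.9 to 78.5 in proliferating cultures, nearly all from Tcf21, while Pdgfra, Col1a2, Thy1, Dcn and Lum were at most 0.764 on any array and Lum lay at or under 0 on 1. For 4 of 4 smooth muscle markers they were 52.9 to 162 and 9.89 to 84.3, mostly from Acta2. The part of other cells in the results was not tested.

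Differentiated cultures had lower levels of 14 transcripts of the kinetochore, the checkpoint, the spindle and chromosome packing. Of the 55 measured genes 14 fell and 0 rose at an adjusted p under 0.05 (limma, group as the only term, adjusted over all 10186 features tested), against 1.01% of all features lower and 0.285% higher. The 14 were Top2a, Hmmr, Nuf2, Nek2, Cenph, Birc5, Cdc20, Cenpa, Ect2, Ttk, Kif23, Cenpk, Smc2 and Cenpm, and all of them belong to the 34 genes with roles in dividing cells. The median log2 difference, differentiated minus proliferating, was -0.38 over the 55 genes, beside 0.20 over all features. By roles, which were assigned with earlier results known, it was -2.44 over those 34 genes and 0.38 over the 21 measured other kinesins, tubulins and stathmins. Because each mouse gave both cultures, a fit with mouse as a random block was made as well. It called 20 of the 55 lower and 3 higher, against 5.28% and 5.07% of all features, so that the share called higher was near that of all features. With the mouse as a fixed term, 13 were called lower and 0 higher, against 0.874% and 0.56%. Of the 6 genes lower and 3 higher under the random block alone, the fixed block called 1, Bub1b. In bulk RNA, fewer dividing cells and less transcript per cell cannot be told apart.

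The calls rest on 3 cultures per group. Without differentiated replicate 2 or 3, proliferating replicate 2 or 3, or any 1 mouse, limma called 0 of the 55 genes and 0 of all features, while 22 to 27 of the 55 had an unadjusted p under 0.05, beside 854 to 1516 of all features (25 and 1519 with all arrays). The differences of the 14 genes stayed negative in each of these fits. Each of the 14 genes was lower in 3 of 3 mice with no overlap of the groups. Of all features, 1822 of 10186 were lower in 3 of 3 mice, and 9.8% of those with 6 values were lower without overlap. The 14 were chosen by p-value in these same data, so this separation is not independent evidence. With a pseudocount of 0.179, the 25th percentile of all positive intensities, all 14 still passed, at differences of -4.53 to -2.42. The fold shrank by over 1.5 times for 8 of them, with differences of -4.53 for Top2a, -3.87 for Nuf2, -3.72 for Hmmr, -3.44 for Cenph, -3.18 for Nek2, -3.01 for Ect2, -2.67 for Ttk and -2.42 for Kif23.

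**Figure D1:**
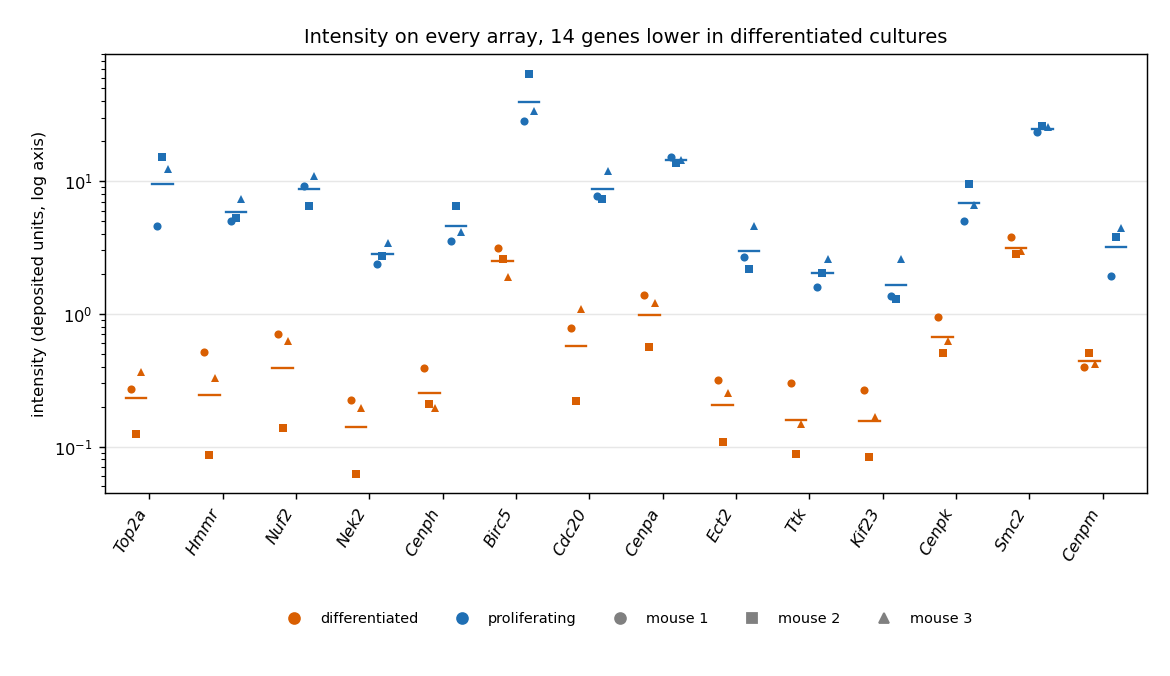
Intensity (deposited units, log axis) of the 14 genes that fell, on every array, with differentiated cultures left of proliferating cultures, symbols for the 3 mice and a bar at the geometric mean of 3 arrays. For every gene all differentiated values lie below all proliferating values, as for Top2a at 0.125 to 0.363 against 4.56 to 15.3.

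The centromere and kinetochore proteins held 5 of the 14 falls, among 9 measured. Cenpa, the histone variant that marks the centromere, had intensities (deposited units, median near 1 on each array) of 1.39, 0.562 and 1.21 in differentiated cultures of mice 1, 2 and 3, against 15.2, 13.6 and 14.4 in proliferating cultures. Its difference between the group means of log2 intensities was -3.87 ± 0.48 (SE of the fit, n = 3 per group, limma adjusted p = 0.0201), which left 6.84% of the proliferating level. The proliferating values lay close together and every differentiated value was far below them. Nuf2, a part of the Ndc80 complex that grips microtubules, had 0.7, 0.138 and 0.629 in differentiated and 9.24, 6.48 and 11 in proliferating cultures and fell by 4.47 on the log2 scale (adjusted p = 0.0308, limma). Cenph had 0.394, 0.211 and 0.196 in differentiated and 3.51, 6.52 and 4.16 in proliferating cultures and fell by 4.17 (adjusted p = 0.0201, limma). Cenpk had 0.947, 0.503 and 0.625 against 4.98, 9.56 and 6.62 in the same order and fell by 3.35 (adjusted p = 0.0265, limma). Cenph, Cenpk and Cenpm are subunits of the inner kinetochore network that binds Cenpa chromatin. Cenpm fell by 2.86 (adjusted p = 0.0335, limma). With mouse as a fixed block Cenpk narrowly missed the threshold (limma adjusted p = 0.0507), and with mouse as a random block it passed (0.00359). Without differentiated replicate 1, Cenpm missed it (0.0872, limma adjusted).

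The remaining 4 genes of the centromere did not pass in that fit. Cenpc1, the link from centromeric chromatin to the kinetochore, had a difference of -0.66 with a 95% interval of -1.82 to 0.49, and Cenpq, of the same inner network as Cenph, had -0.32 (-1.46 to 0.83). Cenpb, which binds the centromeric satellite repeat, had intensities of 12.1, 4.16 and 6.96 in differentiated and 4.84, 1.97 and 3.03 in proliferating cultures. It was higher in 3 of 3 mice, by 1.32, 1.07 and 1.20 on the log2 scale, and the groups overlapped (limma adjusted p = 0.367 without a mouse term and 0.0673 under the random block). Cenpx, a small histone-fold protein that also works in DNA repair, had 0.45, 0.47 and 0.456 in differentiated and 0.226, 0.147 and 0.142 in proliferating cultures, with no overlap. Its difference of 1.45 missed the threshold without a mouse term (limma adjusted p = 0.14) and passed with mouse as a random block (0.021), but not as a fixed one (0.085). Its proliferating mean of 0.171 lay under 0.179, a range limited by background, and with a pseudocount of that size the difference was 0.87 and missed the threshold (limma adjusted p = 0.144). Cenpb and Cenpx were 2 of 9 genes higher in all 3 mice, a smaller share than the 3142 of 10186 over all features.

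Among the 4 spindle checkpoint genes, all were lower in 3 of 3 mice, as were 1822 of the 10186 features, and 1 passed. Ttk, the kinase that starts checkpoint signalling, had intensities of 0.301, 0.0879 and 0.148 in differentiated and 1.58, 2.01 and 2.61 in proliferating cultures. It fell by 3.68 ± 0.54 (limma adjusted p = 0.0308, 0.0516 under the fixed block and 0.00376 under the random one). Of its differentiated values 2 lay under 0.179, and with the pseudocount it fell by 2.67. Bub1b had 0.394, 0.182 and 0.33 in differentiated and 2.17, 1.2 and 4 in proliferating cultures, with no overlap. Bub1b and Mad2l1 are parts of the complex that blocks Cdc20. Bub1b had a difference of -2.92 that narrowly missed without a mouse term (limma adjusted p = 0.056) and passed under the fixed block (0.0495) and the random one (0.00555). Mad2l1 had 4.52, 1.83 and 2.48 in differentiated and 15.7, 11.2 and 15.2 in proliferating cultures. Its difference of -2.34 did not pass without a mouse term (limma adjusted p = 0.0642) or with the fixed block (0.0516) and passed with the random block (0.00694). Bub3, the adaptor that brings the Bub kinases to kinetochores and also has a role in splicing, had a difference of -0.60 with an interval of -1.73 to 0.52 and overlapping groups.

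Of the Aurora, passenger and Polo proteins, Birc5 fell. Birc5 (survivin) is the subunit that brings the chromosomal passenger complex to centromeres. It had intensities of 3.14, 2.58 and 1.89 in differentiated and 28.4, 64 and 33.5 in proliferating cultures. It fell by 3.99 ± 0.48 on the log2 scale, or 15.9-fold (limma adjusted p = 0.0201). Incenp, the scaffold of the same complex, had 0.284, 0.0871 and 0.137 in differentiated and 0.241, 1.39 and 1.62 in proliferating cultures, so that mouse 1 showed no drop and the groups overlapped. Its difference was -2.44 (limma adjusted p = 0.208), and without proliferating replicate 1 it was -3.32 and passed (0.0486). That fit leaves out the proliferating value that went against a fall, so its pass adds no support. Incenp did not pass in the other fits that left out 1 culture or mouse (limma adjusted p of 0.087 to 0.733). Its differentiated mean of 0.169 lay under 0.179, and with the pseudocount the difference was -1.64. Plk1, the Polo kinase of mitotic entry and exit, had 0.21, 0.404 and 0.221 in differentiated and 0.91, 0.988 and 3.36 in proliferating cultures, with no overlap and a difference of -2.44 (limma adjusted p = 0.105 without a mouse term, 0.0988 under the fixed block and 0.0217 under the random block). Aurkc, the Aurora kinase of meiosis and early embryos, had a difference of 0.01 with an interval of -1.38 to 1.4. The somatic Aurora kinases Aurka and Aurkb were not analysed here.

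Of the 5 Nek kinases, Nek2 passed without a mouse term. Nek2, the centrosome kinase that parts the spindle poles, had intensities of 0.226, 0.0626 and 0.196 in differentiated and 2.39, 2.73 and 3.44 in proliferating cultures and fell by 4.33 ± 0.57 (limma adjusted p = 0.0201). With a pseudocount of 0.179 it fell by 3.18, and its differentiated mean of 0.162 lay under that value. Nek7, which acts on spindle poles and, in macrophages, on the NLRP3 inflammasome, had 14.8, 4.18 and 5.09 in differentiated and 2.19, 0.96 and 1.4 in proliferating cultures. Every differentiated value was above every proliferating value, and the difference was 2.25 ± 0.60, or 4.75-fold. It missed the threshold without a mouse term (limma adjusted p = 0.124) and with mouse as a fixed block (0.0548), and passed with mouse as a random block (0.0127). Nek3, Nek4 and Nek6 had differences of -0.55, 0.53 and -0.24 with overlapping groups, and did not pass in any of these fits.

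At the exit from mitosis, Cdc20, the activator of the anaphase-promoting complex, had intensities of 0.78, 0.219 and 1.09 in differentiated and 7.65, 7.31 and 11.9 in proliferating cultures. It fell by 3.93 ± 0.64 (limma adjusted p = 0.0335, or 0.0765 without differentiated replicate 1). Pttg1, the securin that Cdc20 helps to destroy, had 0.84, 0.209 and 0.568 in differentiated and 0.385, 0.457 and 0.436 in proliferating cultures, with a difference of 0.13 and an interval of -1.18 to 1.43. Its feature thus gave no fall beside that of Cdc20, and the difference between the 2 genes was not tested. The feature was dim in dividing cells too, with a proliferating mean of 0.426 against 8.95 for Cdc20. A fall as large as that of Cdc20 would have ended under 0.179, where background limits its size.

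Top2a, the topoisomerase that untangles sister chromatids, had the largest difference of the 55 genes. Its intensities were 0.27, 0.125 and 0.363 in differentiated and 4.56, 15.3 and 12.3 in proliferating cultures. It fell by 5.36 ± 0.62 on the log2 scale, or 41.2-fold (limma adjusted p = 0.0201). With the pseudocount it fell by 4.53, and on leaving out 1 culture or mouse the difference ranged from -6.01 to -4.58. Smc2, the ATPase of condensin, had 3.79, 2.8 and 2.97 in differentiated and 23.4, 25.8 and 25.5 in proliferating cultures. It fell by 2.98 ± 0.39 (limma adjusted p = 0.0201), with little spread in either group. The cohesin ATPases hold sister chromatids together and also shape chromatin in cells that do not divide. Of these, Smc1a had 4.91, 2.9 and 3.8 in differentiated and 10.3, 10.4 and 10.4 in proliferating cultures, with no overlap and a difference of -1.45 (limma adjusted p = 0.14 without a mouse term, 0.085 under the fixed block and 0.021 under the random block). Smc3 had 0.333, 0.396 and 0.709 in differentiated and 0.175, 1.04 and 1.01 in proliferating cultures, with a difference of -0.33 (-2.04 to 1.39).

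All 3 genes of spindle assembly and cytokinesis were lower in every mouse, as were 1822 of the 10186 features. Hmmr, a microtubule protein of the spindle poles, had intensities of 0.513, 0.087 and 0.329 in differentiated and 5.03, 5.29 and 7.36 in proliferating cultures and fell by 4.57 ± 0.67 (limma adjusted p = 0.0305). Ect2, which activates RhoA at the cleavage furrow, had 0.319, 0.108 and 0.253 in differentiated and 2.67, 2.18 and 4.61 in proliferating cultures and fell by 3.86 ± 0.55 (limma adjusted p = 0.0297). Racgap1, the subunit of the centralspindlin complex that binds Ect2, had 1.15, 0.45 and 0.529 in differentiated and 3.49, 4.82 and 3.59 in proliferating cultures. Its difference of -2.59 lay just over the threshold without a mouse term (limma adjusted p = 0.0522) and under the fixed block (0.0664), and passed with mouse as a random block (0.00804). The motor of the same complex, Kif23, had 0.268, 0.0838 and 0.166 in differentiated and 1.36, 1.3 and 2.57 in proliferating cultures and fell by 3.41 ± 0.56 (limma adjusted p = 0.0335). Its differentiated mean of 0.173 was in the range limited by background, and with the pseudocount the fall was 2.42.

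**Figure D2:**
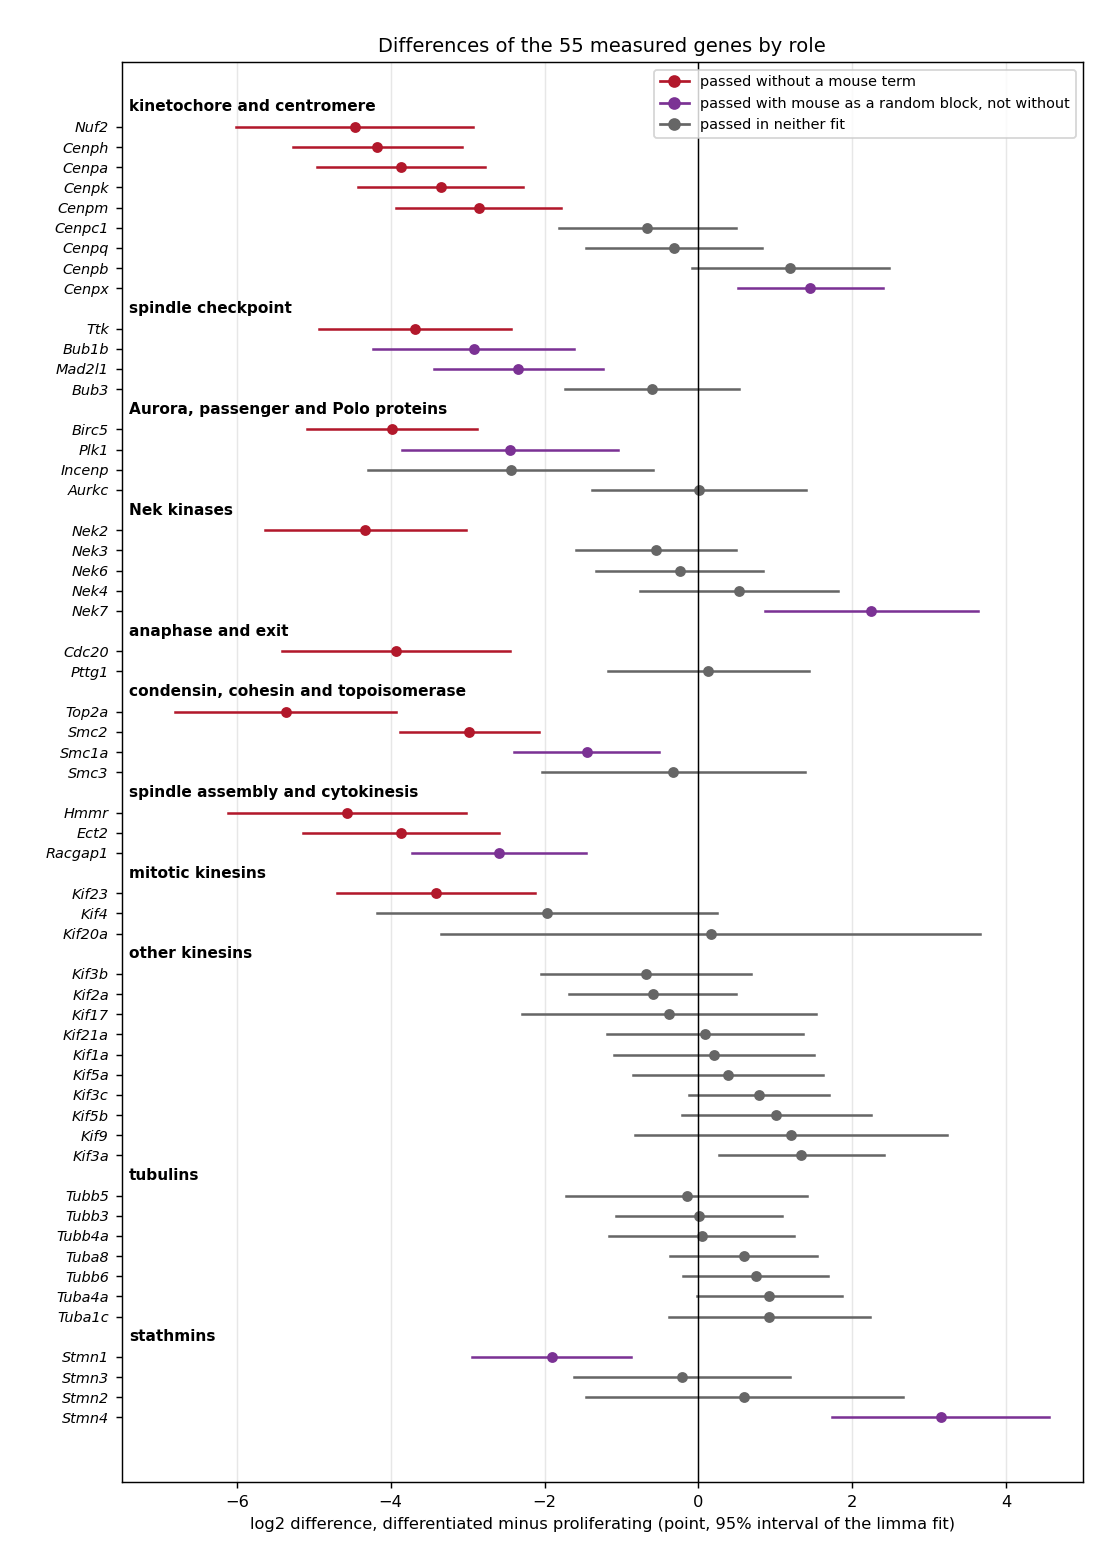
Log2 difference, differentiated minus proliferating, of the 55 measured genes in 11 roles, with the 95% interval of the limma fit. The 14 genes that passed without a mouse term all lie left of 0, between -5.36 and -2.86, and the other kinesins and the tubulins lie between -0.69 and 1.34.

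Within the kinesin family, 1 of the 3 mitotic motors fell, Kif23. Kif4, the chromokinesin of the central spindle, had intensities of 0.195, 1.34 and 0.0872 in differentiated and 0.588, 1.55 and 1.51 in proliferating cultures, with log2 differences of -1.59, -0.21 and -4.12 within the 3 mice, and did not pass (limma adjusted p = 0.389). Its differentiated value in mouse 3 lay under 0.179, so that background limits the size of that difference. With the pseudocount the difference of Kif4 was -1.30, against -1.97. Kif20a, a motor of cytokinesis, had 0.119, 4.06 and 0.544 in differentiated and 0.0719, 1.67 and 1.57 in proliferating cultures. Both cultures of mouse 1 were lowest in their group and lay under 0.179. The difference of Kif20a, 0.16, had an interval of -3.35 to 3.67. It turned to -0.10 under quantile normalization.

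Of the 10 other kinesins measured 0 passed in any of the fits above, with differences from -0.69 to 1.34 and 1 at an unadjusted p under 0.05. Kif3a, a motor of cilium assembly, had 4.91, 4.7 and 2.79 in differentiated and 1.66, 1.11 and 2.16 in proliferating cultures, with no overlap and a difference of 1.34 (limma adjusted p = 0.233 without a mouse term and 0.0578 under the random block). Kif3c, of the same kinesin family, had 2.56, 1.89 and 2.7 in differentiated and 1.45, 1.3 and 1.35 in proliferating cultures, again with no overlap, and a difference of 0.79 (limma adjusted p = 0.408). Kif3b, the partner of Kif3a in that motor, had -0.69 (-2.05 to 0.68), and neither subunit passed. Kif5b, the ubiquitous kinesin heavy chain that spreads nuclei along myotubes in mice, was higher in 3 of 3 mice with a difference of 1.01 (-0.22 to 2.24). Kif9 had a difference of 1.20 that came from differentiated replicate 2, at 1.76 against 0.259 and 0.139 in the other two, and was -0.01 without mouse 2. Kif1a, Kif2a, Kif5a, Kif17 and Kif21a lay between -0.60 and 0.38 with overlapping groups.

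Of 7 measured tubulins, the subunits of the microtubules themselves, 0 passed in any of these fits, and 4 were higher in all 3 mice, as were 3142 of the 10186 features. Tuba4a, an alpha-tubulin that is abundant in muscle and brain, had intensities of 104, 63.3 and 82.2 in differentiated and 46.8, 39.7 and 42.8 in proliferating cultures, with no overlap and a difference of 0.92 (-0.02 to 1.87). Tubb6, a beta-tubulin linked to muscle regeneration in mice, had 69.2, 66.4 and 103 in differentiated and 50.7, 47.8 and 41.7 in proliferating cultures, with no overlap and a difference of 0.74 (-0.20 to 1.68). Tuba1c had a difference of 0.92 (-0.38 to 2.23) and Tuba8 one of 0.59 (-0.37 to 1.55). Tubb5, the main beta-tubulin of dividing cells, had 111, 30 and 95.1 in differentiated and 155, 43.5 and 64.7 in proliferating cultures, and its difference of -0.15 (-1.72 to 1.41) ranged from -0.55 to 0.44 on leaving out 1 array or mouse. The neuronal Tubb3 and the brain isotype Tubb4a had differences of 0.01 and 0.04, each with a sign that depended on the scaling (-0.0029 for Tubb3 after median centring and -0.0031 for Tubb4a after quantile normalization). Tubulin sequences are close to each other, and how far these features tell isotypes apart is not given in the sources used here.

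Stathmins bind tubulin dimers and destabilise microtubules. Stmn1, the member found in dividing cells, had intensities of 5.47, 7.71 and 9.86 in differentiated and 20.6, 29.7 and 35.8 in proliferating cultures. Its log2 differences were -1.92, -1.94 and -1.86 in mice 1, 2 and 3, the closest agreement between mice among the 20 genes called lower with mouse as a random block. Without a mouse term it did not pass (limma adjusted p = 0.0911), with mouse as a random block it did (0.00902), and with mouse as a fixed block it narrowly missed (0.0548). Stmn4, a neuronal member, had 0.384, 0.289 and 0.974 in differentiated and 0.0373, 0.0978 and 0.0424 in proliferating cultures, with no overlap. Its difference of 3.15 ± 0.61 was the largest positive one of the 55 genes. It missed the threshold without a mouse term (limma adjusted p = 0.056) and under the fixed block (0.0805), and passed under the random block (0.0114). All 3 proliferating values lay under 0.179, so that background limits its size, and with the pseudocount the difference was 1.51 (limma adjusted p = 0.0766). Stmn2 and Stmn3, the other neuronal members, had differences of 0.60 and -0.21 with overlapping groups.

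**Figure D3:**
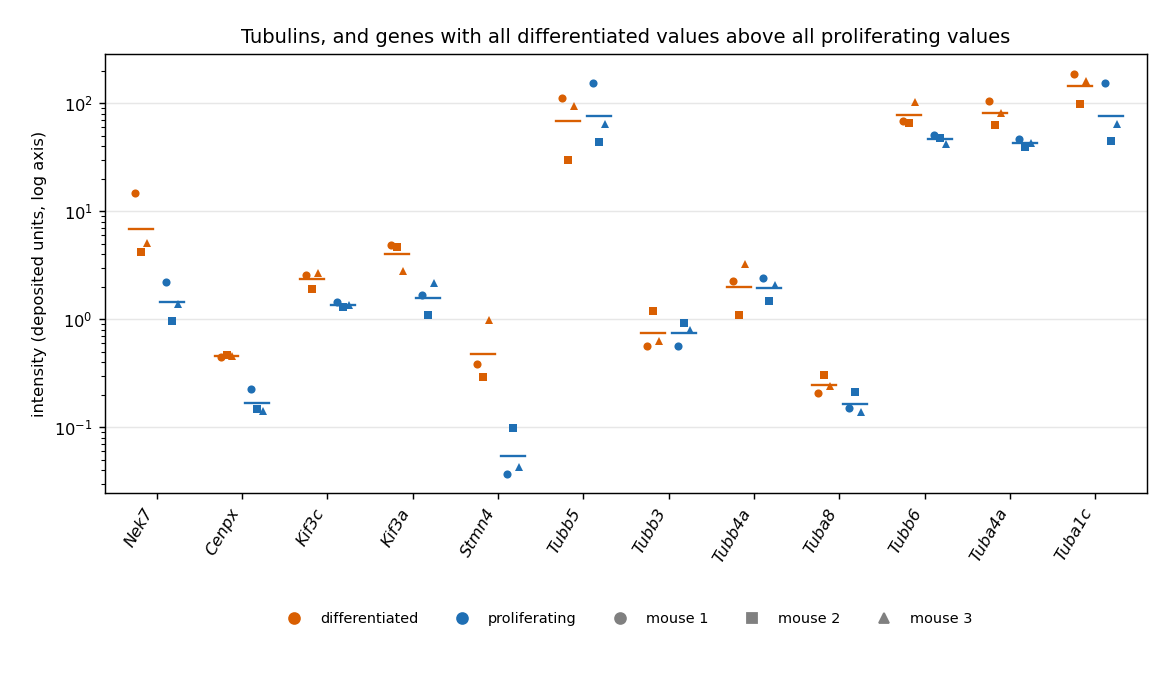
Intensity (deposited units, log axis) on every array of the 7 tubulins and of 5 other genes whose differentiated values all lie above their proliferating values, with differentiated left of proliferating, symbols for the 3 mice and a bar at the geometric mean of 3 arrays. The values of Nek7, Cenpx and Stmn4 lie apart, and those of Tubb5 overlap.

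Groups that did not overlap were counted over all genes as well. Of the 55 genes 20 had all differentiated values below all proliferating values and 7 had them all above, against 9.8% and 10.9% of the 10128 features with 6 values. Nek7, Cenpx, Kif3a, Kif3c, Tuba4a, Tubb6 and Stmn4 were the 7, a share near that of all features. All 20 of the lower set were among the 20 genes called lower with mouse as a random block.

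The size of the difference varied with the mouse. Over the 14 genes that fell, the median log2 difference was -3.17 in mouse 1, -4.62 in mouse 2 and -4.13 in mouse 3, with ranges of -4.08 to -2.28, -6.93 to -2.90 and -5.09 to -3.10. The median over all features was 0.37 in mouse 1, 0.089 in mouse 2 and 0.087 in mouse 3, so that mouse 1 also lay higher array-wide. Differentiated replicate 2 was the lowest of its group for 11 of the 14 and differentiated replicate 1 the highest for 11. On replicate 2, 7 of the 14 lay under an intensity of 0.179, against 0 on replicate 1 and 2 on replicate 3, so that the size of the fall in mouse 2 is limited by background. Proliferating replicate 1 was the lowest of its group for 9 of the 14 and replicate 3 for 0. The same replicate 1 had the highest Myog and, at 7.05 against 0.103 and 1.49, the highest Ckm of the proliferating cultures. Among differentiated cultures, replicate 2 had the lowest Myog and, at 1.00 against 51.4 and 47.9, the lowest Ckm. The part of these marker differences in the result was not tested.

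**Figure D4:**
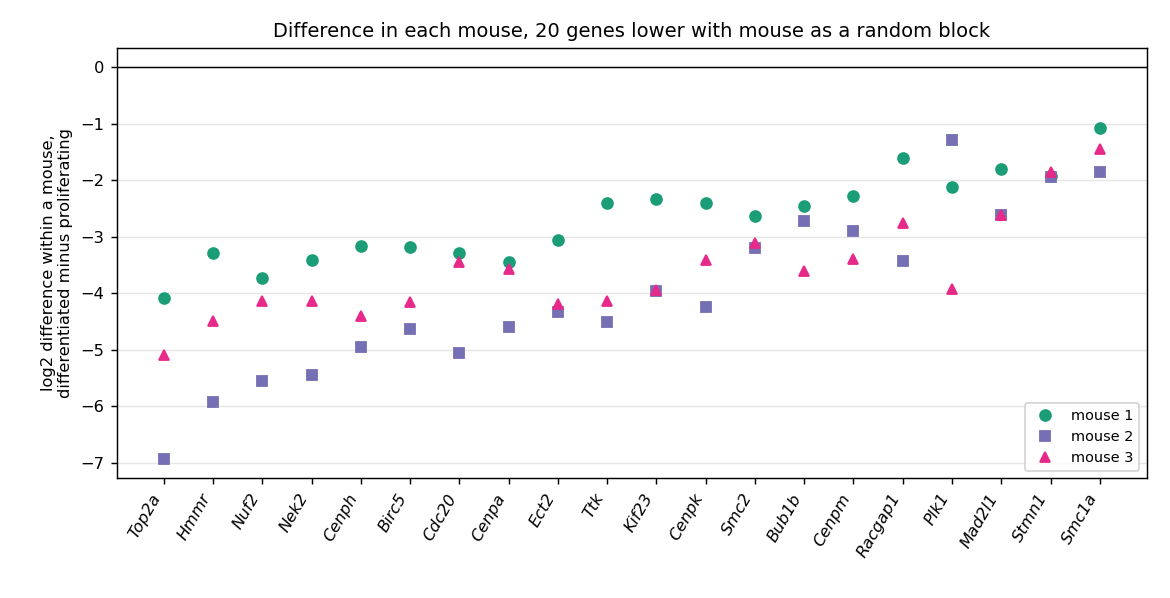
Log2 difference, differentiated minus proliferating, within each mouse for the 20 genes called lower with mouse as a random block. All 60 values lie below 0. Mouse 1 shows the smallest fall for most genes, and the 3 values of Stmn1 nearly coincide at -1.92, -1.94 and -1.86.

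Other genes of the pathway fell as well. Of a list of 111 mitotic partners 53 were named on the array and 52 measured, and 10 fell and 0 rose (limma adjusted p under 0.05), against 1.01% of all features lower and 0.285% higher. Cdk1, the kinase that drives mitosis, had intensities of 2.96, 0.858 and 3.25 in differentiated and 27.3, 40.5 and 38 in proliferating cultures and fell by 4.10. Its cyclins Ccna2 and Ccnb2 had differences of -4.47 and -4.25, and its small partners Cks1b and Cks2 had -2.70 and -3.20, all of which passed. Aspm, which focuses spindle poles, fell by 3.73, and Zwilch, which recruits dynein to kinetochores, fell by 3.15. Gtse1, Cdca3 and the transcription factor Mybl2 passed with differences of -3.27, -3.16 and -3.29. The differentiated means of Aspm (0.14) and Cdca3 (0.131) lay under 0.179, and with the pseudocount their differences were -2.68 and -2.14. Knstrn and Pbk had the largest differences that did not pass, -3.45 and -3.37 (limma adjusted p = 0.0613 and 0.0745), and Knstrn, with a differentiated mean of 0.147, had -2.22 with the pseudocount. The median difference of the 52 was -0.85, beside 0.20 over all features. With mouse as a random block 21 fell and 1 rose, against 5.28% and 5.07% of all features, and the 1 was the phosphatase regulator Ensa (1.55, limma adjusted p = 0.0224, or 0.0716 under the fixed block). With mouse as a fixed block 8 fell and 0 rose, against 0.874% and 0.56%, and Cdk1 (0.0516) and Cdca3 (0.0714) missed the threshold. Without proliferating replicate 1, 9 of the 52 fell, beside 88 of 10172 features lower. Without differentiated replicate 1, 5 fell, beside 51 of 10170 features lower. Without any other culture or any 1 mouse, 0 of the 52 and 0 of all features were called. The list was drawn up with earlier results of these data known, so its direction is not independent evidence.

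The promoter elements printed above were counted in every window. Of the 56 genes 48 had a promoter window in the RefSeq table, running from 250 bases before to 50 after a transcription start, and a gene counted if any of its starts held the motif. Among the 20 genes called lower with mouse as a random block, 19 had a window, and 12 of the 19 (63.2%) held a CHR or its variant and 16 (84.2%) a CCAAT. All 12 with a CHR or its variant also held a CCAAT. Of the other measured genes with a window, 4 of 28 (14.3%) held a CHR or its variant, 12 (42.9%) a CCAAT and 2 (7.14%) both. Of the 5086 named genes of the array with a window, 17.6% held a CHR or its variant, 42.6% a CCAAT and 6.86% both. Over all 27025 genes of the table, TTTGAA was found in 20.2%, TTCGAA in 1.8% and CCAAT in 41.1%. Among the 14 genes called without a mouse term, 9 held both and 12 a CCAAT. The shares depend on the window. In the 150 bases before the start alone, both elements occurred in 26.3% of the lower genes, 3.57% of the other measured genes and 2.42% of the array's named genes.

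By role, 14 of the 32 genes with roles in dividing cells and a window held both elements, and 0 of 16 other kinesins, tubulins and stathmins did. In the 6 promoters printed for genes that fell, the CHR nearest to the start lay between positions -23 and 22, counted with the start as 1 and the base before it as -1. Hmmr had 5 CCAAT matches in its whole window and Top2a had 6. Birc5, Nuf2 and Mad2l1 were lower with mouse as a random block and held none of the 3 motifs, which says only that these letters are not in these windows. Bub3 and Kif4 held both without being called. A match is a string of letters in the reference genome, and binding was not measured.

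**Figure D5:**
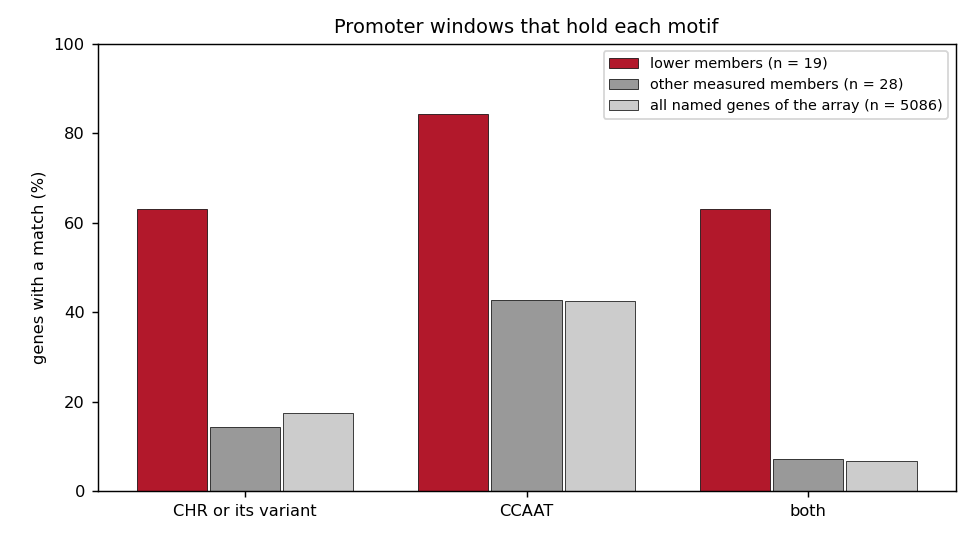
Share of genes (%) whose promoter window holds a CHR or its variant, a CCAAT, or both, for genes called lower with mouse as a random block, the other measured members of the set and all named genes of the array, with the number of genes with a window in the legend. Both elements occur in 63.2% of the lower genes, 7.14% of the other members and 6.86% of the array's genes. In the 150 bases before the start alone the shares were 26.3%, 3.57% and 2.42%.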

How the data were processed

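RNA of 6 cultures, 3 differentiated and 3 proliferating, was hybridised as biotin-labelled cRNA (from 5 µg of RNA) to 1-colour CodeLink arrays, per the labels' protocols. The deposited values are linear intensities with medians of 0.883 to 0.939. How the authors scaled them and corrected background is not given in the sources used here. Gene symbols come from the platform annotation and were unchanged when matched by Entrez identifier to RefSeq.

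Values were floored at 0.0236 (1st percentile of positive values), taken to log2 and fitted with limma 3.58.1 in R 4.3.3 over the 10186 features with at least 2 values per group, with group as the only term and Benjamini-Hochberg adjustment over all of them. The threshold was an adjusted p of 0.05. No analysis method is stated in the labels. The labels say that each mouse gave both cultures, and equal replicate numbers in the titles were taken as the same mouse. Same-numbered cultures deviated together over all features (correlations of 0.42, 0.37 and 0.28, of deviations from the group means). Correlations of unlike-numbered cultures were not computed. Mouse, as the replicate number, was therefore also fitted as a fixed and as a random block (estimated correlation 0.535). The pseudocount named in the text is 0.179, the 25th percentile, and a group mean under it is called limited by background. Other alternatives were a floor at the 10th percentile, quantile normalization, median centring, filters on features, another prior and each culture or mouse left out.

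On simulated data of 10128 features, 16-fold changes were recovered at 69.6% without a block and 91.2% with the random block, and 4-fold changes at 14% and 51.8%. Every simulated feature was given a mouse term with the same share of its variance. The random block models just that, so its better recovery was built in and does not show which fit suits the real data. Unchanged features were called wrongly 0.2 times per run without a block and 5 times with it. Array-wide correlations were 0.906 to 0.938 within differentiated, 0.913 to 0.949 within proliferating and 0.854 to 0.93 between the groups, and the number of arrays limits the precision. Promoter letters were counted with Python 3.11.15 in the RefSeq windows.

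The genes, their roles, the partner list and the markers were chosen with earlier results of these data known. Every member could be named. Full values were given for up to 4 genes per role that passed, by size of difference, and otherwise for the 2 with the largest differences. Further members with array values, such as Pttg1, Smc3, Kif4 and Kif20a, are given for completeness of their roles.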

Additional observations from a re-analysis of the deposited data

How the results depend on the processing

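Without a mouse term 14 of the 55 genes fell and 0 rose. At an adjusted p under 0.01 limma called 0 of the 55, 0 of the 52 partners and 0 of all features, while 25 of the 55 had an unadjusted p under 0.05. The number lower was 17 with a floor at the 10th percentile, 19 with a pseudocount, 16 after quantile normalization, 14 after median centring, 19 of 48 tested without the dimmest features, 14 over features with 6 values, 19 with a trended and robust prior, 13 with mouse as a fixed block and 20 as a random block. Over all features the same settings gave 178, 266, 162, 100, 279, 103, 263, 89 and 538 lower, against 103. The number higher was 1 with the floor, 2 with the trended prior and 3 with mouse as a random block. Over all features these settings gave 65, 125 and 516 higher, against 29. The partners' count lower went to 16 with the pseudocount, 17 without the dimmest features, 17 with the trended prior and 21 with mouse as a random block, where 1 was higher, and to 8 with mouse as a fixed block. Leaving out 1 culture or mouse gave 0 to 15 of the 55 lower and 0 to 9 of the partners, and a median difference of the 55 of -0.75 to -0.26, against -0.38. Over all features these fits gave 88 lower without proliferating replicate 1, 51 without differentiated replicate 1 and 0 in the rest. Quantile normalization moved the median difference of all features to 0.04, against 0.20. With a promoter window of 150 bases before the start alone, 26.3% of the lower genes held a CHR or its variant, against 63.2%, beside 10.7% of the other measured genes and 8.71% of the array's named genes. Each gene has 1 feature, so taking the dimmest feature per gene changed nothing.

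Some genes that were not called changed sign. Aurkc was -0.034 with the pseudocount, Kif20a -0.098 and Tubb4a -0.0031 after quantile normalization, and Tubb3 -0.0029 after median centring. On leaving out 1 culture or mouse the ranges were -0.55 to 0.51 for Aurkc, -0.59 to 0.24 for Nek6, -0.37 to 0.75 for Pttg1, -1.18 to 0.21 for Smc3, -1.34 to 1.37 for Kif20a, -1.06 to 0.31 for Kif17, -0.29 to 0.57 for Kif21a, -0.18 to 0.63 for Kif1a, -0.10 to 0.76 for Kif5a, -0.014 to 1.97 for Kif9, -0.67 to 0.29 for Stmn3, -0.51 to 1.35 for Stmn2, -0.55 to 0.44 for Tubb5, -0.32 to 0.20 for Tubb3 and -0.31 to 0.48 for Tubb4a. The cause was not tested. A group mean under 0.179 limits 9 of the 55: Nek2, Kif23, Incenp, Cenpx, Stmn4, Kif17, Kif5a, Stmn3 and Tuba8.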
